A study of Mus musculus with 16 samples.

Results

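Astrocytes of the thalamus that carried an IL-33 reporter signal were compared with thalamus astrocytes that did not, in the same mice. The comparison holds 8 of the 16 libraries of the series, a positive and a negative library from each of 4 mice, and the libraries were paired by mouse number. The other 8 libraries are the same gates from the spinal cord. They are used to test where the thalamus differs, and they also entered the filter and the fit, where they share in the estimate of the spread. All mice were C57BL/6 at postnatal day 15, and the genotype was IL-33-mCherry (het)/Aldh1l1-GFP+ for both gates, so positive and negative cells came from the same heterozygous animals. Cells were isolated by FACS, and the positive and negative gates are those of the reporter of Il33. The labels do not say how the GFP of Aldh1l1 was used in sorting. Values are FPKM, read fragments corrected for transcript length and for library size, as the authors deposited them. Replicates were separate mice, and values per gate are listed in the order of mouse 1, 2, 3 and 4.

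IL-33 is a cytokine of the interleukin-1 family that is stored in the nucleus and acts on cells with its receptor ST2. In the developing thalamus and spinal cord it is made by astrocytes, and it is known to act on microglia and the removal of synapses. Astrocytes themselves are diverse: protoplasmic astrocytes of the grey matter wrap synapses and vessels, fibrous astrocytes of the white matter are rich in intermediate filaments, and ependymal cells, which share many astrocyte genes, line the ventricles and carry motile cilia.

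The summed FPKM was 1402061 to 2344483 in the negative and 1092783 to 1283876 in the positive thalamus libraries. Features at 1 FPKM or more numbered 13385 to 14234 in negative and 14418 to 14731 in positive libraries, without overlap. Mitochondrial genes took 56.7% to 73.9% of this sum in negative and 51.3% to 56.7% in positive libraries, with the negative library of mouse 1 highest. The part of these differences between the gates in the results was not tested. Depth behind these values is unknown. Libraries of the positive gate were more alike than those of the negative gate, with a mean Pearson correlation across features of log2(FPKM + 1) with the other libraries of the gate of 0.923 to 0.928 against 0.820 to 0.852. The first principal component of the thalamus libraries held 42.5% of the variance and separated the gates. The second held 18.1% and set the negative library of mouse 1, at 95.9, apart from the others at -46.1 to 2.42. The summed FPKM of 20 astrocyte markers was 9983 to 13475 in negative and 9054 to 11072 in positive libraries, so astrocyte RNA was abundant in both gates. The share of astrocytes among the sorted cells was not tested. The negative libraries also held markers of other cell types, given below by list.

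Positive libraries held less RNA of genes of motile cilia, myelin, neurons and fibrous astrocytes than negative libraries, and more of a group of protoplasmic astrocyte genes. Enkur of the ciliary axoneme, for example, was at 45.4 to 111 FPKM in negative and 0.22 to 1.67 FPKM in positive libraries, while F3, tissue factor, was at 58.8 to 103 FPKM and 194 to 328 FPKM. Of 15930 features tested, 4140 passed the test between the gates (limma on log2(FPKM + 1) with mouse as a block, Benjamini-Hochberg adjusted p below 0.05), which is 26.0% of features. Higher calls in positive libraries numbered 1855 (11.6%) and lower calls 2285 (14.3%), and 6157 features had an unadjusted p below 0.05. With only the thalamus libraries fitted, 2068 features were called (774 higher, 1294 lower), and without the positive library of mouse 3 or 4 the higher calls were 1079 and 1156. Changes below are log2 changes of FPKM + 1, positive minus negative, with their standard error, and they understate the change of weakly expressed genes. The direction of calls depended on the class of transcript. Among 12567 protein-coding genes, 981 rose and 2178 fell, with a median change of -0.08. Among the 3363 other features, 874 rose and 107 fell, with a median of 0.66. Pseudogenes rose in 202 and fell in 17 of 650 cases, and long noncoding transcripts rose in 396 and fell in 52 of 1545.

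Abundant protein-coding genes fell most often. Of 45 coding genes with a mean of at least 500 FPKM, 24 fell (53.3%) and 3 rose, while of 4428 genes at 1 to 5 FPKM, 535 fell (12.1%) and 263 rose. The summed FPKM of nuclear protein-coding genes moved with the gate too, at 266296 to 279656 in negative and 209211 to 225132 in positive libraries, and its part in these counts was not tested. Rescaling the libraries to this sum shifted the median change of all features from 0.05 to 0.30 and the share of higher calls from 44.8% to 69.8%. Directions of lists whose median changes sign under that rescaling are marked below.

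**Figure D1:**
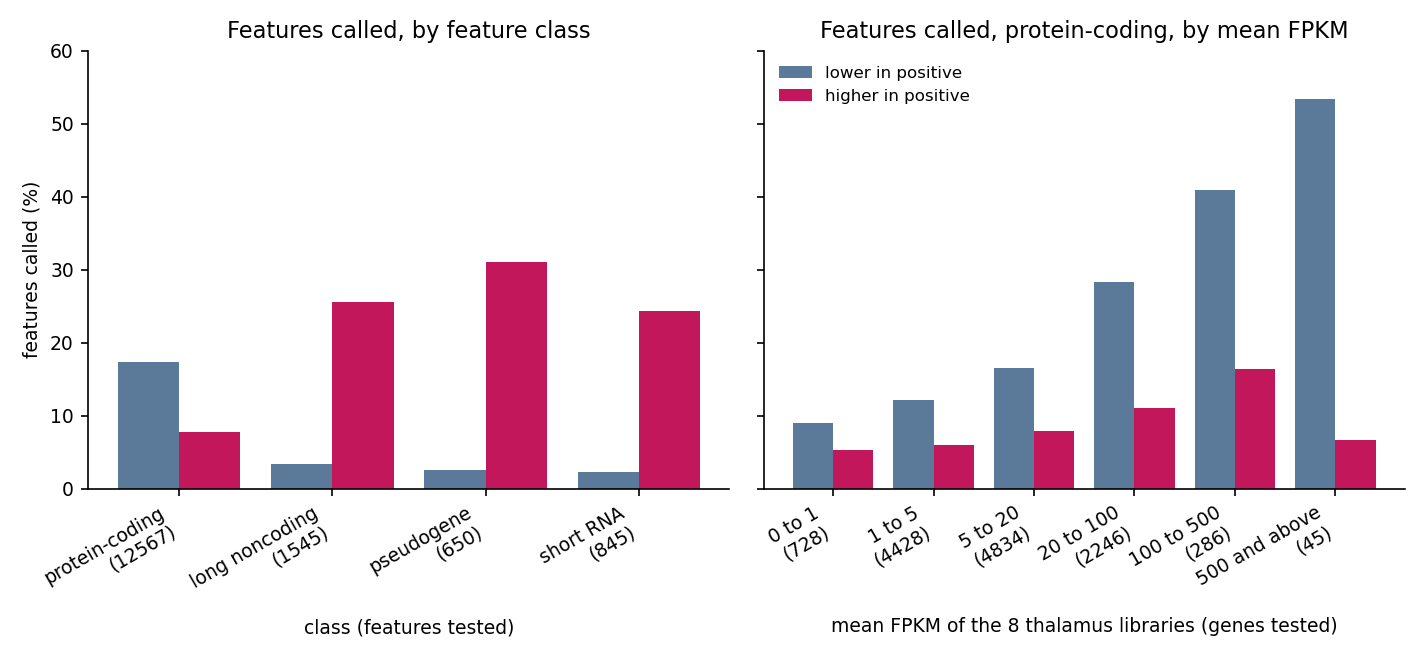
Share of tested features that passed the test in the thalamus, by feature class (left) and, for protein-coding genes, by mean FPKM over the 8 thalamus libraries (right), with the number tested in brackets; blue bars are lower and red bars higher in positive libraries. The share of lower coding genes grows from 12.1% at 1 to 5 FPKM to 53.3% at 500 FPKM and above, while pseudogenes and long noncoding transcripts are mostly higher.

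Il33 itself (chromosome 19, 29925114 to 29960718, GRCm38), the gene of the reporter, was at 26.9, 15.2, 13.3 and 19.0 FPKM in the negative libraries and 27.4, 31.98, 26.6 and 23.8 FPKM in the positive libraries. In each mouse the positive library was the higher one, yet the negative library of mouse 1 lay within the range of the positive libraries. The difference of 0.58 ± 0.21 did not pass the test, with an adjusted p of 0.0614 in limma and 0.00641 to 0.293 over 24 alternatives. Without the negative library of mouse 1 it was 0.71, with an adjusted p of 0.0284. Aldh1l1 (chromosome 6, 90486427 to 90600203), the folate enzyme gene of the GFP reporter, was at 14.7, 15.8, 31.04 and 38.3 FPKM in the negative libraries and 18.7, 18.4, 17.5 and 18.8 FPKM in the positive libraries. The positive libraries were within a narrow range inside that of the negative ones, and the difference of -0.31 ± 0.23 had an adjusted p of 0.334. The gene overlaps Gm15756. The sources used here do not give whether the authors' counting used strand, so values of genes that overlap another gene are uncertain.

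The largest falls were of genes of motile cilia, the beating organelles of ependymal cells. All 20 ependymal markers tested fell in the positive libraries, against 14.3% of all features, with changes of -5.34 to -2.01 and a median of -3.66 beside 0.05 over all features. The same 20 markers were lower in each of 4 mice without overlap of the gates, and all 20 were called when any single library or mouse was left out. Their summed FPKM was 745 to 1025 in negative and 58.4 to 85.3 in positive libraries. In bulk RNA, fewer cells of a type and less RNA per cell cannot be told apart. No marker of the list was at 0 in all positive libraries. Foxj1, the master transcription factor of motile cilia, was at 8.09, 22.2, 26.9 and 28.8 FPKM in the negative libraries and 0.943, 0.643, 0.629 and 0.564 FPKM in the positive libraries. It fell by 3.60 ± 0.36 (adjusted p = 2.79e-05), and the gates did not overlap.

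Enkur, a calmodulin-binding protein of the axoneme (chromosome 2, 21180731 to 21205365), was at 111, 92.8, 49.3 and 45.4 FPKM in the negative libraries and 1.67, 0.701, 0.66 and 0.22 FPKM in the positive libraries. It had the largest fall of the named genes, by 5.34 ± 0.33 (adjusted p = 1.08e-06). Promoter stretches are shown for Enkur and for Lrrc23 and Ccdc153, genes of a radial spoke protein and a coiled-coil protein of the axoneme, because many members of the motile-cilium lists that fell share a short motif there. The letters are from RefSeq (GRCm38.p6), on the strand of the gene, and the capitals mark GTTGCC or its reverse complement GGCAAC, a part of the X-box that RFX factors bind, searched on both strands without other motifs.
Enkur, chr2:21205337-21205456, minus strand: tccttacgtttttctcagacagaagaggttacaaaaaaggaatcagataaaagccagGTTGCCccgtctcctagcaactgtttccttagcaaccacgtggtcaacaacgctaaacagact
Lrrc23, chr6:124779822-124779941, minus strand: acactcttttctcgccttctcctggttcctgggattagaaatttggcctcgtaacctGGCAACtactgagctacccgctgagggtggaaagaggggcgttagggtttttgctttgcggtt
Ccdc153, chr9:44240468-44240587, plus strand: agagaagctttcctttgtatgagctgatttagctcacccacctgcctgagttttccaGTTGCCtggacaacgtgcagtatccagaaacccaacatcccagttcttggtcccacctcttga

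The motif begins 34 bases before the annotated start of Enkur, 152 before that of Ccdc153 and, as the first of 2 matches, 157 before that of Lrrc23. In windows from 250 bases before to 50 after the start, 21 of 50 motile-cilium genes that fell and had an entry held it (42%, of 70 such genes), against 3821 of all 27025 windows (14.1%) and 1471 of 9509 tested coding genes (15.5%). It was also in 7 of 12 motile-cilium genes that were not called (58.3%, of 19), in 4 of 18 oligodendrocyte genes that fell (22.2%, of 29) and in 4 of 16 astrocyte genes that rose (25%, of 17). A match is a description of the letters only. Lrrc23 was at 17.1, 32.7, 21.6 and 30.1 FPKM in negative and 0.364, 0.483, 0.715 and 0.29 FPKM in positive libraries, a fall of 4.14 ± 0.33. Ccdc153 was at 31.9, 37.5, 15.3 and 27.7 FPKM in negative and 0.614, 0.611, 0.764 and 0.627 FPKM in positive libraries, a fall of 4.07 ± 0.26. Both genes, like Enkur, had every positive library below every negative one.

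The parts of the cilium fell together. Most ependymal markers, among them Foxj1, Enkur, Rsph1, Cfap54, Hydin and Dnah11, are also members of the cilium lists. The counts of the cilium lists are therefore not separate from those of the ependymal list. Outer dynein arms, which drive the beat, had 8 of 11 genes lower and 0 higher, with log2 changes of -3.26 ± 0.36 for Dnah9, -3.03 ± 0.25 for Dnah11 and -2.03 ± 0.21 for Dnah5, all heavy chains. Dnaic1, an intermediate chain of the same arm, was still at 19.6 to 39.998 FPKM in positive libraries against 42.2 to 74.4 FPKM in negative ones, a fall of 1.06 ± 0.20 (adjusted p = 0.00281). Dnaic1 overlaps Enho, a gene of a secreted peptide. Inner dynein arms, which shape the beat, had 9 of 10 lower, led by the heavy chain Dnah12 with a change of -3.68 ± 0.39 and the intermediate chain Wdr63 with -3.68 ± 0.45. The single exception was the heavy chain gene Dnah7b, whose change of -0.27 ± 0.20 did not pass (adjusted p = 0.354). Radial spokes, which relay signals from the central pair to the dyneins, had 6 of 9 lower. Rsph1, a spoke head protein, was at 54.1, 67.4, 46.4 and 58.0 FPKM in the negative libraries and 0.929, 0.0622, 0.353 and 1.22 FPKM in the positive libraries. Its positive libraries lay at most at 1.22 FPKM, and it fell by 5.18 ± 0.37 (adjusted p = 2.41e-06).

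The central pair, the inner pair of microtubules of a motile cilium, had 8 of 9 genes lower. Cfap54 was at 219, 127, 91.7 and 113 FPKM in the negative libraries and 3.6, 3.48, 3.52 and 3.5 FPKM in the positive libraries, a fall of 4.86 ± 0.22 (adjusted p = 1.23e-07). Its 4 positive libraries were nearly equal. Hydin, a giant protein of the central pair, was at 8.29, 9.84, 6.57 and 10.2 FPKM in the negative libraries and 0.0178, 0.0331, 0.0547 and 0.0512 FPKM in the positive libraries, a fall of 3.21 ± 0.18 (adjusted p = 5.79e-07). Of 13 genes for the assembly and docking of dyneins, 10 fell, with log2 changes of -3.52 ± 0.29 for Zmynd10 and -3.28 ± 0.39 for Ccdc40. Of 29 doublet and other axoneme genes, 25 fell. Cfap44, a protein that tethers the inner arms, fell by 3.75 ± 0.29 (adjusted p = 3.9e-06), and Nme5, a kinase-like protein of the spokes, by 3.21 ± 0.29 (adjusted p = 1.33e-05). No member of these lists was called higher. The largest changes were 0.73 in the outer arm list and 0.68 in the doublet list. In each of these lists 1 member had every positive library above every negative one.

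Other large falls were also seen in genes linked to ependyma and other glia. Ak7, an adenylate kinase of cilia, was at 47.2, 53.0, 31.7 and 39.4 FPKM in the negative libraries and 0.412, 0.0735, 0.0527 and 0.131 FPKM in the positive libraries, a fall of 5.22 ± 0.25 (adjusted p = 1.42e-07). Cd24a, a surface protein of progenitors and ependymal cells, was at 65.5, 124, 39.4 and 61.6 FPKM in the negative libraries and 1.01, 1.96, 0.787 and 1.44 FPKM in the positive libraries, a fall of 4.91 ± 0.40 (adjusted p = 6.87e-06). Prelp, a leucine-rich matrix protein, was at 61.4, 112, 71.8 and 97.4 FPKM in the negative libraries and 2.84, 1.68, 2.24 and 1.34 FPKM in the positive libraries, a fall of 4.83 ± 0.25 (adjusted p = 3.12e-07). None of the 3 overlapped between the gates, and the calls of all 15 genes with the largest falls held in the 24 alternatives.

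Of 27 genes of intraflagellar transport, which builds primary and motile cilia alike, 10 fell and 0 rose, with a median of -0.72. Arl3, a small GTPase of ciliary cargo release, fell by 1.42 ± 0.23, Kif3a, a motor subunit, by 1.27 ± 0.22 and Ift57, a train protein, by 1.27 ± 0.24. The summed FPKM of the list was 445 to 847 in negative and 299.6 to 387 in positive libraries. Among transcription factors of ciliated cells, 4 of 8 fell. Besides Foxj1, these were Myb with a change of -2.18 ± 0.36, Rfx2 with -1.56 ± 0.28 and Trp73 with -1.55 ± 0.20, all regulators of the multiciliated programme. The related Rfx3 had a change of -0.39 ± 0.33 (adjusted p = 0.416) and Rfx4 had a change of 0.08 ± 0.19 (adjusted p = 0.784). Rfx4 was at 44.8 to 86.3 FPKM in negative and 69.9 to 82.8 FPKM in positive libraries.

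**Figure D2:**
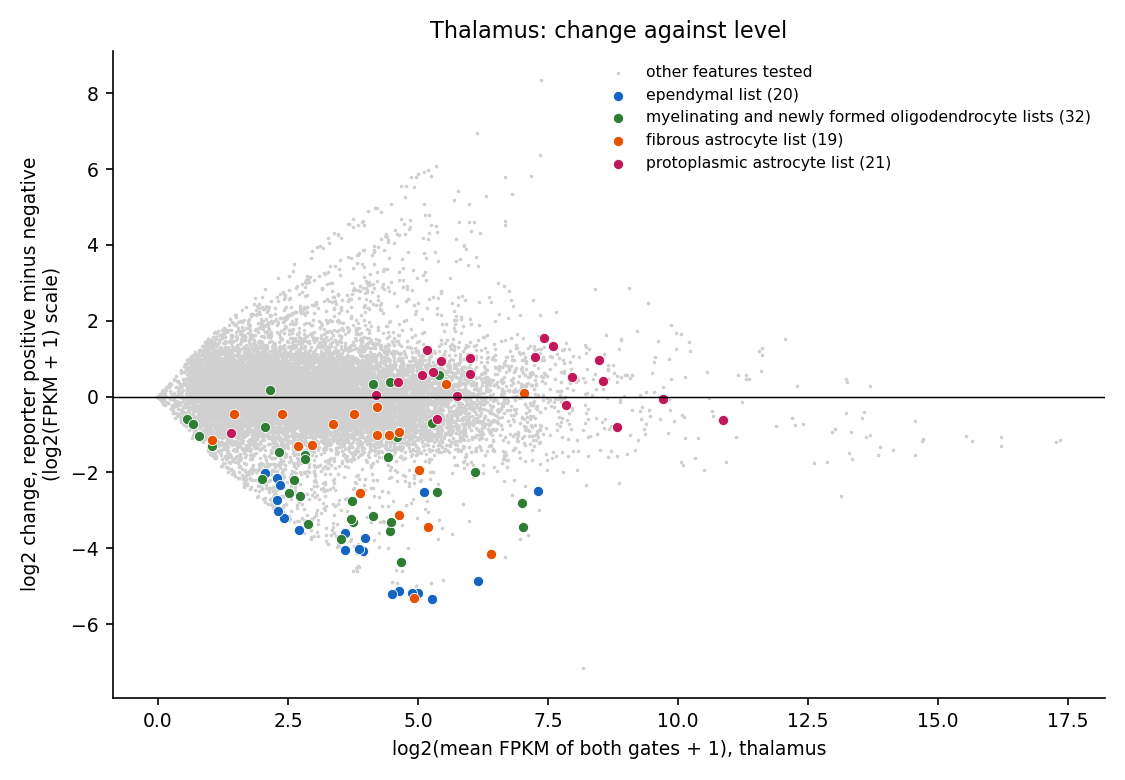
Log2 change of FPKM + 1 between positive and negative thalamus libraries (vertical axis) against the log2 of the mean FPKM + 1 (horizontal axis), 1 point per tested feature. Ependymal markers (blue, 20) lie between -5.34 and -2.01, most oligodendrocyte markers (green) below 0, fibrous astrocyte genes (orange) mostly below 0, and protoplasmic astrocyte genes (red) mostly above 0.

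Markers of the oligodendrocyte lineage, the cells that make myelin, were also lower in the positive gate. The counts of this and the following cell type lists stand beside 14.3% of all features that fell and 11.6% that rose. For coding genes alone, 17.3% fell and 7.8% rose. Of 21 genes of myelinating oligodendrocytes 16 fell and 0 rose, with a median of -2.16, and of 11 genes of newly formed oligodendrocytes 8 fell and 1 rose, with a median of -1.47. Mbp, which compacts the myelin sheath, was at 199.5, 137, 295 and 262 FPKM in the negative libraries and 35.3, 27.2, 31.1 and 26.0 FPKM in the positive libraries, a fall of 2.81 ± 0.18 (adjusted p = 1.47e-06). Every positive library lay below every negative one, and none was at 0. The summed FPKM of the myelinating list was 505 to 1108 in negative and 111 to 164 in positive libraries.

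Within the newly formed list, Enpp6, a choline phosphodiesterase of cells that start to myelinate, fell by 4.37 ± 0.27 (adjusted p = 9.78e-07). Bmp4, a growth factor of the BMP family, was at 31.4, 16.8, 20.7 and 13.3 FPKM in the negative libraries and 0.43, 0.417, 0.658 and 0.594 FPKM in the positive libraries, a fall of 3.76 ± 0.27. Itpr2, a calcium channel of internal stores, was the single member that rose, by 0.58 ± 0.14 (adjusted p = 0.00994). Its call was lost without mouse 2 or mouse 4 and with only the thalamus libraries fitted. Precursor markers were mixed, with 5 of 11 lower and 2 higher. Sox10, the transcription factor of the whole lineage, fell by 3.33 ± 0.19 (adjusted p = 6.2e-07). Olig2, which astrocytes of the thalamus also express, had a change of 0.11 ± 0.14 (adjusted p = 0.617).

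Markers of neurons and mural cells were lower as well, while few markers of microglia and endothelium passed the test. Of 14 pan-neuronal genes 9 fell and 0 rose, with a median of -1.22, and their summed FPKM was 129 to 174 in negative and 29.02 to 36.5 in positive libraries. Snap25, a protein of synaptic vesicle fusion, was at 19.5, 36.1, 59.7 and 59.3 FPKM in the negative libraries and 6.49, 6.54, 10.9 and 7.72 FPKM in the positive libraries, a fall of 2.22 ± 0.29 (adjusted p = 0.000221). The 6 tested markers of thalamic and inhibitory neurons gave 0 calls in either direction in limma. Their median of -0.17 becomes 0.05 when libraries are rescaled to the coding sum.

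Mural cells, the pericytes and muscle cells of vessels, had 4 of 9 markers lower, or 2 without the positive library of mouse 4. Rgs5, a pericyte gene, was at 61.8, 51.6, 90.8 and 68.7 FPKM in the negative libraries and 4.05, 5.72, 7.37 and 4.57 FPKM in the positive libraries, a fall of 3.43 ± 0.30 (adjusted p = 9.53e-06). Its gates were far apart, and the summed list was at 94.1 to 116 against 11.1 to 16.1 FPKM. Endothelial markers had 2 of 14 lower and 0 higher, with falls near the 14.3% of all features. Their sums were 95.8 to 136 and 87.4 to 115 FPKM. Microglial markers had 1 of 11 higher and 1 lower, with sums of 27.4 to 54.1 and 27.2 to 41.6 FPKM. Their median of -0.12 changes sign when libraries are rescaled to the coding sum. Meningeal fibroblast markers had 2 of 7 lower and 0 higher. Of 12 markers of border macrophages and blood cells only 2 were tested and 1 rose. It was Cd163, a scavenger receptor of macrophages, at 0.376 to 0.915 FPKM in negative and 2.42 to 3.16 FPKM in positive libraries, a rise of 1.24 ± 0.22 (adjusted p = 0.00173).

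The choroid plexus list had 3 of 8 tested markers lower. Among these, Folr1 was at least 4-fold above the other negative libraries in that of mouse 4. The summed FPKM of the list was 554, 695, 61.8 and 102 in negative and 55.0, 66.0, 38.5 and 43.8 in positive libraries, so the gates overlapped. Ttr, its transthyretin gene, was at 469, 599, 0.397 and 11.4 FPKM in the negative libraries and 9.21, 14.1, 0.153 and 0.129 FPKM in the positive libraries. Mice 1 and 2 thus held most of it in the negative gate, and its fall of 3.64 ± 1.21 (adjusted p = 0.044) was lost when any single library except the negative one of mouse 3 was left out, with an adjusted p of up to 0.145. Cycling and progenitor genes had 7 of 14 lower, or 4 without the negative library of mouse 2 or without the positive library of mouse 1 or of mouse 2. The part of these other cell types in the remaining results was not tested.

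**Figure D3:**
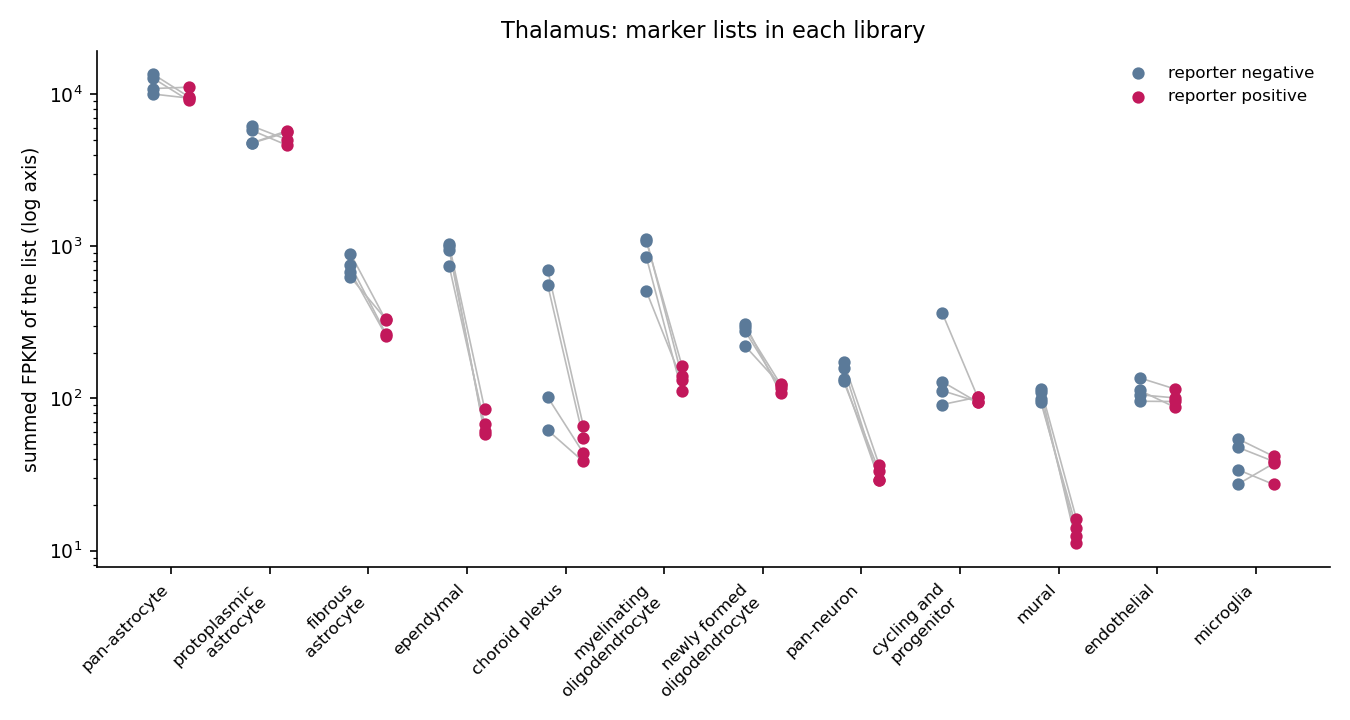
Summed FPKM of 12 marker lists (log axis) in each thalamus library, with a line joining the negative (blue) and positive (red) library of a mouse. The ependymal, oligodendrocyte, neuron and mural sums are lower in all 4 positive libraries, while the pan-astrocyte, protoplasmic, endothelial and microglial sums overlap between the gates.

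General astrocyte markers were expressed at high levels in both gates and split in direction. Of 20 tested, 6 rose and 3 fell, against 11.6% and 14.3% of all features, with a median of -0.15 that becomes 0.18 when libraries are rescaled to the coding sum. The counts were unsteady: 1 rose without the positive library of mouse 1 or 4, 2 without the positive library of mouse 3 or the negative one of mouse 1, and 3 without the positive library of mouse 2 or the negative one of mouse 2 or 4. Without the negative library of mouse 1, 5 fell. Slc1a2, the main glutamate transporter, was at 1587, 1250.2, 1755 and 1703 FPKM in the negative libraries and 1791, 1339, 1517 and 1459 FPKM in the positive libraries. The gates overlapped, and the difference of -0.04 ± 0.14 had an adjusted p of 0.856. Aqp4, the water channel of endfeet, had a change of -0.37 ± 0.15 (adjusted p = 0.088).

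Ndrg2, a stress-related gene of mature astrocytes, was at 1019, 1473, 2559 and 2381 FPKM in the negative libraries and 834, 915, 779 and 763 FPKM in the positive libraries. It was more even in the positive gate, and its fall of 1.08 ± 0.24 (adjusted p = 0.00616) was lost without mouse 3 or 4 or with only the thalamus libraries fitted, with an adjusted p of up to 0.0747. Slc39a12, a zinc transporter, was at 98.4, 78.1, 98.2 and 76.2 FPKM in the negative libraries and 151, 167, 143 and 129 FPKM in the positive libraries. It rose by 0.75 ± 0.17 (adjusted p = 0.00726) with no overlap of the gates, and only leaving out mouse 4 ended the call, at an adjusted p of 0.0586.

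Many genes of fibrous astrocytes fell, while many genes of protoplasmic astrocytes rose. Of 19 fibrous genes, 11 fell and 0 rose, against 14.3% and 11.6% of all features. Of all coding genes at 20 to 100 and 100 to 500 FPKM, 28.3% and 40.9% fell. The fibrous list had a median of -1.02 and summed values of 627 to 893 FPKM in negative and 259 to 329.8 FPKM in positive libraries. Vim, the intermediate filament vimentin (chromosome 2, 13573927 to 13582826), was at 151, 224, 115 and 146 FPKM in the negative libraries and 7.33, 9.1, 6.16 and 8.62 FPKM in the positive libraries. It fell by 4.16 ± 0.27 (adjusted p = 1.48e-06). Gfap, the classical filament of fibrous astrocytes (chromosome 11, 102887336 to 102900912), was at 36.2, 32.4, 84.7 and 112 FPKM in the negative libraries and 4.21, 5.8, 4.25 and 3.59 FPKM in the positive libraries, a fall of 3.44 ± 0.32 (adjusted p = 1.78e-05). Neither gene overlapped between the gates. Ependymal cells express Vim too, and their markers moved the same way. The part of that cell type in these values was not tested.

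Slc38a1, a glutamine transporter that belongs to the same list (chromosome 15, 96571418 to 96642913), was at 56.4, 48.9, 55.4 and 73.0 FPKM in the negative libraries and 0.345, 0.437, 0.496 and 0.684 FPKM in the positive libraries. This fall of 5.31 ± 0.16 had the smallest standard error of the largest falls (adjusted p = 6.49e-09). The fibrous list was chosen with earlier results of these data known, so Slc38a1 adds no independent support to its count of falls. Among other members, Igfbp5, which binds insulin-like growth factors, fell by 3.13 ± 0.31, and the calcium-binding S100a6 fell by 2.53 ± 0.49. Id3, an inhibitor of helix-loop-helix factors, was at 76.0 to 197 FPKM in negative and 111 to 155 FPKM in positive libraries, with a change of 0.10 ± 0.22 (adjusted p = 0.774).

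Of 21 protoplasmic genes, 11 rose and 3 fell, against 11.6% and 14.3% of all features, so the falls were near that share. The median was 0.53, although the summed FPKM of 4748 to 6160 in negative and 4594 to 5735 in positive libraries overlapped. F3, tissue factor, the start of blood clotting (chromosome 3, 121723537 to 121735048), was at 103, 93.0, 93.0 and 58.8 FPKM in the negative libraries and 228, 328, 272 and 194 FPKM in the positive libraries. It rose by 1.55 ± 0.14 (adjusted p = 1.11e-05). Fgfr3, a receptor of fibroblast growth factors, was at 66.1, 108, 128 and 97.4 FPKM in the negative libraries and 199.8, 258, 178 and 171 FPKM in the positive libraries, a rise of 1.03 ± 0.19 (adjusted p = 0.00201). In both genes all positive libraries were above all negative ones. Gjb6, connexin 30 of astrocyte gap junctions, was at 185, 226, 347 and 224 FPKM in the negative libraries and 419, 528, 479.6 and 434 FPKM in the positive libraries. It rose by 0.95 ± 0.17 (adjusted p = 0.00217), also without overlap.

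Mertk, a receptor by which astrocytes engulf synapses, was at 45.7, 57.6, 43.4 and 20.4 FPKM in the negative libraries and 61.4, 109.99, 102 and 60.2 FPKM in the positive libraries. Every positive library was above every negative one, and it rose by 1.02 ± 0.19 (adjusted p = 0.00271). Htra1, a secreted protease, was at 63.5, 90.0, 117 and 190.4 FPKM in the negative libraries and 304, 222, 281 and 282 FPKM in the positive libraries, a rise of 1.34 ± 0.25 (adjusted p = 0.00245), and it overlaps Fgfr2. The potassium channel gene Kcnj10 went the other way, at 593, 375, 641 and 713 FPKM in the negative libraries and 379, 289, 303 and 338 FPKM in the positive libraries. Its fall of 0.79 ± 0.19 (adjusted p = 0.00892) was lost without mouse 3 or 4 and under the coding-sum rescaling, with an adjusted p of up to 0.0909. The calls of F3, Fgfr3, Gjb6, Mertk and Htra1 held in all 24 alternatives. The GABA transporter Slc6a11, at 524 to 1127 FPKM in negative and 613 to 1018 FPKM in positive libraries, had a change of -0.06 ± 0.21 (adjusted p = 0.866).

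The largest rises of named genes were smaller than the largest falls. Of the 15 named genes with the largest rises, Zfp691, a zinc finger protein, led at 0.524, 1.8, 10.3 and 1.15 FPKM in the negative libraries and 15.1, 19.98, 31.4 and 21.7 FPKM in the positive libraries, a rise of 2.81 ± 0.41 (adjusted p = 0.000474). Hif3a, a member of the hypoxia-inducible factor family (chromosome 7, 17031507 to 17062427), was at 14.95, 19.2, 25.2 and 14.6 FPKM in the negative libraries and 58.5, 80.5, 97.0 and 55.6 FPKM in the positive libraries. Every positive library was above every negative one, and it rose by 1.92 ± 0.23 (adjusted p = 0.000121). Pfkp, the platelet form of phosphofructokinase (chromosome 13, 6579768 to 6648777), was at 21.9, 21.6, 36.8 and 18.5 FPKM in the negative libraries and 75.1, 93.2, 103 and 91.2 FPKM in the positive libraries, a rise of 1.87 ± 0.16 (adjusted p = 7.59e-06), and it overlaps Pitrm1. Gpsm2, a regulator of spindle orientation that overlaps Clcc1, was at 5.66, 23.4, 13.2 and 6.05 FPKM in the negative libraries and 30.8, 48.1, 39.9 and 32.4 FPKM in the positive libraries, a rise of 1.76 ± 0.23 (adjusted p = 0.000191).

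Some calls among the large rises depended on single libraries. Nbeal2, a scaffold of granules in platelets, was at 0, 0.472, 9.1 and 0.581 FPKM in the negative libraries and 17.7, 12.5, 9.86 and 7.97 FPKM in the positive libraries. Its rise of 2.51 ± 0.66 (adjusted p = 0.0155) was lost without the positive library of mouse 1 or 2 or the negative one of mouse 4, with an adjusted p of up to 0.0942. Cpeb1, a regulator of translation, had a change of 1.97 ± 0.65 (adjusted p = 0.0423) and lost the call in 12 alternatives, among them leaving out the positive library of mouse 1, 3 or 4 or the negative one of mouse 1, 2 or 3, at up to 0.195. Toe1, which overlaps Tesk2, lost it without the positive library of mouse 4, and Ppp1r3g, a glycogen-targeting subunit, without the positive library of mouse 2 or 4 or the negative one of mouse 4, at up to 0.0712 and 0.123. Zfp691, Hif3a, Pfkp and Gpsm2 were called in all 24 alternatives, and none of the 4 overlapped between the gates.

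**Figure D4:**
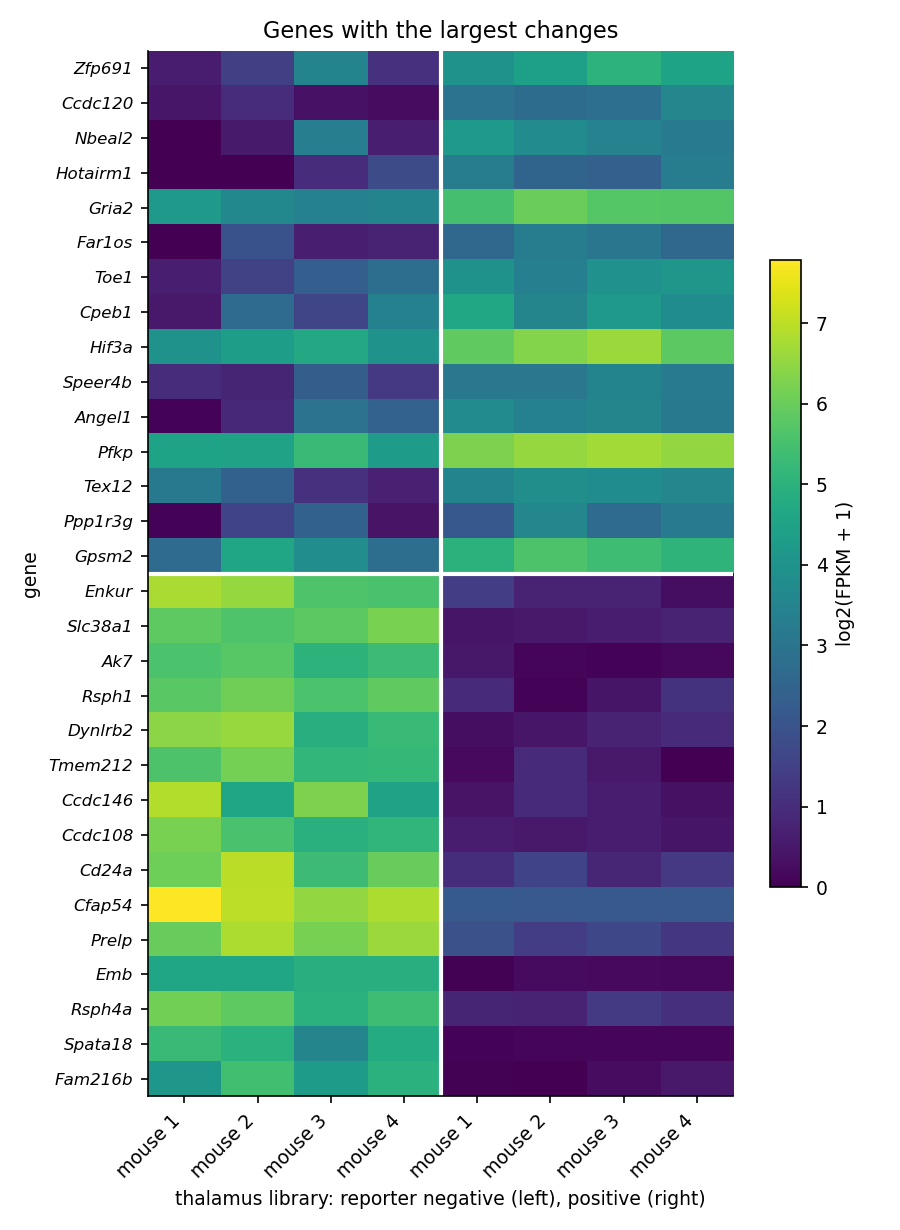
Log2(FPKM + 1) of the 15 genes with the largest rises (top) and the 15 with the largest falls (bottom) by thalamus library; the 4 left columns are negative and the 4 right columns positive libraries, in mouse order. Falling genes are at 3.60 FPKM or less in all 4 positive libraries, while several rising genes, such as Zfp691 and Nbeal2, are also present in the negative library of mouse 3.

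The counts of the functional lists below stand beside 11.6% of all features that rose and 14.3% that fell. Among coding genes alone, 7.8% rose and 17.3% fell. Of coding genes at 20 to 100 FPKM, 11.1% rose and 28.3% fell, and at 100 to 500 FPKM, 16.4% rose and 40.9% fell. Only oxidative phosphorylation is set beside genes of its own level below. Of 18 genes of glutamate uptake and recycling, 3 rose and 3 fell, but 1 rose without the positive library of mouse 1, 2 or 4 or the negative one of mouse 1, 3 or 4, and 6 fell without the negative library of mouse 1. The list's median of -0.05 changes sign under the coding-sum rescaling. Besides Slc38a1, its relative Slc38a2 was at 11.1, 13.7, 12.3 and 12.1 FPKM in the negative libraries and 2.04, 1.83, 3.28 and 4.74 FPKM in the positive libraries, a fall of 1.80 ± 0.20 (adjusted p = 5.93e-05). Slc1a1, the neuronal-type glutamate carrier, fell by 2.59 ± 0.26 (adjusted p = 2.97e-05). Of 11 genes for GABA, glycine and monoamine transport 7 fell and 0 rose, or 4 without the positive library of mouse 3. Slc6a6, the taurine transporter, was at 18.5, 30.3, 17.9 and 32.5 FPKM in the negative libraries and 0.376, 0.932, 0.834 and 0.447 FPKM in the positive libraries. Its positive libraries were all below 1 FPKM, a fall of 3.93 ± 0.29 (adjusted p = 2.76e-06).

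Of the tested receptors, more rose than fell. Of 17 glutamate receptor genes 4 rose and 1 fell, with 2 rises without the positive library of mouse 3 or of mouse 4. Gria2, the AMPA receptor subunit that keeps calcium out (chromosome 3, 80681450 to 80802835), was at 17.6, 11.4, 9.8 and 10.5 FPKM in the negative libraries and 43.5, 64.0, 52.3 and 51.6 FPKM in the positive libraries. All positive libraries were above all negative ones, and it rose by 2.04 ± 0.21 (adjusted p = 4.1e-05). Its relative Gria4 was at 8.75, 7.08, 5.62 and 4.25 FPKM in the negative libraries and 3.35, 2.09, 1.7 and 2.5 FPKM in the positive libraries and fell by 1.11 ± 0.20 (adjusted p = 0.00177). Of 20 receptors for GABA, purines and amines 6 rose and 2 fell, with 3 rises without the positive library of mouse 3. Adrb1, the beta-1 adrenergic receptor, was at 4.41, 4.34, 1.27 and 1.91 FPKM in the negative libraries and 14.2, 6.52, 9.97 and 12.1 FPKM in the positive libraries. It rose by 1.61 ± 0.38 (adjusted p = 0.00943), and the call was lost only without mouse 4, at 0.0888.

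Of 24 potassium, water and junction genes, 3 rose and 6 fell, with 1 rise without the positive library of mouse 1 or 4 or the negative one of mouse 1, and the median of -0.08 changes sign under the coding-sum rescaling. Kcnk2, a background potassium channel, fell by 1.67 ± 0.25 (adjusted p = 0.000627) and Slc12a2, a chloride importer, by 1.27 ± 0.21 (adjusted p = 0.00101). Kcnj10 and Gjb6, given above, also belong to this list.

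Secreted and adhesive proteins that act on synapses fell in 7 and rose in 3 of 28 cases, with a median of 0.02. Under the coding-sum rescaling 6 fell and 12 rose, with a median of 0.23, and with only the thalamus libraries fitted 4 fell and 1 rose, so which direction had more calls depended on the scaling. Sparc, which limits synapse formation, was at 1478, 1164, 1951 and 1977 FPKM in the negative libraries and 510.4, 535, 488 and 406 FPKM in the positive libraries. It was the most abundant of the falling members after Sparcl1 and fell by 1.73 ± 0.21 (adjusted p = 0.000112) without overlap of the gates. Sparcl1, its counterpart that promotes synapses, was at 2043, 2227, 2436 and 2302 FPKM in the negative libraries and 1546, 1933, 1348 and 1176 FPKM in the positive libraries, a fall of 0.61 ± 0.18 (adjusted p = 0.028). That call was lost without the positive library of mouse 1, 3 or 4 or the negative one of mouse 3 or 4, with an adjusted p of up to 0.205. Gas6, a bridging ligand of Mertk, was at 7.39, 10.2, 12.4 and 7.73 FPKM in the negative libraries and 2.88, 1.89, 2.14 and 1.37 FPKM in the positive libraries, a fall of 1.76 ± 0.21 (adjusted p = 0.000109), opposite to its receptor.

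Signals from astrocytes to microglia rose in 3 and fell in 4 of 20 cases, and 5 rose without the negative library of mouse 4. These shares are close to the 11.6% and 14.3% of all features. Il18, a cytokine of the same family as IL-33, was at 15.9, 46.3, 27.6 and 18.8 FPKM in the negative libraries and 74.7, 128, 67.1 and 68.4 FPKM in the positive libraries. All positive libraries were above all negative ones, a rise of 1.67 ± 0.22 (adjusted p = 0.000259), and the gene overlaps Tex12, which rose as well. Cxcl12, a chemokine, fell by 1.62 ± 0.30 (adjusted p = 0.0023) and complement C4b fell by 1.55 ± 0.26 (adjusted p = 0.00111). Cntf, ciliary neurotrophic factor, whose gene overlaps Zfp91, was at 2.07 to 5.09 FPKM in positive libraries and at or near 0 in negative ones, and it rose (adjusted p = 0.000519). Apoe, the main lipid carrier, had a change of -0.55 ± 0.27 (adjusted p = 0.15).

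The BMP pathway, which favours astrocyte fate, had 8 of 18 genes lower and 1 higher. Its receptors Bmpr1a and Bmpr2 fell by 1.00 ± 0.14 and 0.72 ± 0.15, its target Id4 by 1.61 ± 0.31 and the inhibitor Bambi by 1.20 ± 0.19. Id4 was the only Id gene of the list that was called, and Id3, given above, did not pass. The ligand Bmp7 rose by 0.76 ± 0.19 (adjusted p = 0.0138), a call lost without mouse 2 or 4 and with only the thalamus libraries fitted. In the Notch and hedgehog list, 1 of 20 rose and 3 fell. Hes5, a Notch target, was at 17.2, 24.2, 24.4 and 16.7 FPKM in the negative libraries and 47.0, 46.2, 42.8 and 39.98 FPKM in the positive libraries, a rise of 1.08 ± 0.19 (adjusted p = 0.00189), with no overlap. Smo, the hedgehog signal transducer, fell by 1.06 ± 0.14 (adjusted p = 0.00027).

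In the FGF list 3 of 19 rose and 2 fell, shares close to the 11.6% and 14.3% of all features. Besides Fgfr3, the neuregulin receptor Erbb4 and Dusp6, a phosphatase that restrains the pathway, rose by 1.56 ± 0.35 and 1.14 ± 0.25, calls that were lost without mouse 4. The ligand Fgf1 fell by 0.81 ± 0.14 (adjusted p = 0.00132). The Wnt list had 5 of 21 higher and 4 lower, with 2 higher without the positive library of mouse 1 and 3 without that of mouse 4. Lgr6, a receptor of R-spondins, was at 10.3, 27.0, 29.3 and 29.99 FPKM in the negative libraries and 56.5, 56.9, 50.7 and 69.0 FPKM in the positive libraries. Its negative library of mouse 1 was the lowest, and it rose by 1.34 ± 0.25 (adjusted p = 0.0028). Sfrp1, a secreted Wnt antagonist, was at 8.73, 94.9, 12.6 and 9.2 FPKM in the negative libraries and 0.885, 1.32, 0.978 and 0.511 FPKM in the positive libraries, with the negative library of mouse 2 far above the rest. It fell by 3.32 ± 0.58 (adjusted p = 0.0016).

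Among glial and regional transcription factors, 12 of 37 fell and 3 rose, with a median of -0.26 that becomes 0.01 under the coding-sum rescaling. Nfix, a nuclear factor of glial maturation, was at 303, 393, 361 and 349 FPKM in the negative libraries and 110.1, 86.3, 74.1 and 84.6 FPKM in the positive libraries. It fell by 1.98 ± 0.16 (adjusted p = 7e-06), and the gates were far apart. Its relative Nfia fell by 0.78 ± 0.15 (adjusted p = 0.00335) and Zic4, a zinc finger factor that overlaps Zic1, by 1.52 ± 0.19. Meis1, a homeodomain factor, rose by 1.42 ± 0.31 (adjusted p = 0.00653), a call lost only without mouse 3.

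Of 28 glycolysis and glycogen genes, 4 rose and 4 fell, and 8 fell without the negative library of mouse 1. The median of -0.14 changes sign under the coding-sum rescaling. With Pfkp and Hif3a, Pfkfb3, which makes the activator of phosphofructokinase, was at 24.6, 26.7, 40.1 and 73.3 FPKM in the negative libraries and 95.3, 58.8, 77.8 and 108 FPKM in the positive libraries, a rise of 1.13 ± 0.25 (adjusted p = 0.00692), although the gates overlapped. Ldhb, a lactate dehydrogenase subunit, was at 302, 367, 439 and 354 FPKM in the negative libraries and 193, 175, 144 and 151 FPKM in the positive libraries. It fell by 1.13 ± 0.16 (adjusted p = 0.000428) with no overlap. Nuclear genes of oxidative phosphorylation fell in 12 and rose in 0 of 39 cases, with a median of -0.32 that becomes 0.00 under the same rescaling. The count was 7 without the positive or the negative library of mouse 3. Most of these genes had a mean of 20 to 500 FPKM, and of all coding genes at 20 to 100 and 100 to 500 FPKM, 28.3% and 40.9% fell, so the count is near that of genes at such levels. Ndufa1 of complex I fell by 1.64 ± 0.28, Cox6a1 of complex IV by 1.45 ± 0.19 and Atp5b of the ATP synthase by 1.06 ± 0.16.

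Genes of fatty acid and ketone use fell in 7 and rose in 1 of 21 cases. Fabp7, the brain fatty acid carrier, was at 1220.4, 1086, 1317 and 1126 FPKM in the negative libraries and 609, 681, 582 and 556 FPKM in the positive libraries. It fell by 0.97 ± 0.14 (adjusted p = 0.000379) without overlap. The thioesterase Acot1 fell by 1.59 ± 0.31 (adjusted p = 0.003). Of 25 cholesterol genes 4 rose and 1 fell, with 2 rises without the positive library of mouse 2, 3 or 4. Hmgcs1, an early enzyme of cholesterol synthesis, was at 96.4, 82.8, 77.6 and 74.4 FPKM in the negative libraries and 28.6, 37.6, 30.3 and 31.5 FPKM in the positive libraries and fell by 1.34 ± 0.15 (adjusted p = 5.67e-05). Msmo1, a later enzyme, rose by 0.95 ± 0.17 (adjusted p = 0.00204). The list's median of -0.19 changes sign under the coding-sum rescaling.

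Several genes of stress responses were also lower in the positive gate. Heat shock genes fell in 9 and rose in 0 of 15 cases, with a median of -1.02. Hsp90aa1, a chaperone, was at 267, 239.8, 299.5 and 331 FPKM in the negative libraries and 37.2, 29.5, 45.3 and 29.4 FPKM in the positive libraries, a fall of 2.98 ± 0.21 (adjusted p = 2.44e-06). Immediate early genes, which are switched on within minutes of stimulation, fell in 5 and rose in 0 of 14. Egr1 was at 22.3, 20.7, 11.7 and 18.7 FPKM in the negative libraries and 3.26, 2.48, 2.44 and 5.87 FPKM in the positive libraries, a fall of 2.12 ± 0.38 (adjusted p = 0.00179). Interferon response genes fell in 4 and rose in 0 of 15, with a change of -2.95 ± 0.37 for Ifitm3, an antiviral membrane protein, and of -1.58 ± 0.17 for B2m, the light chain of MHC class I. Most members of the immediate early and interferon lists did not pass. The part of the 3 lists in the other results was not tested.

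In the extracellular matrix, proteases and their inhibitors fell in 5 and rose in 2 of 24 cases, with 3 falls without the positive library of mouse 3 or 4, near the 14.3% and 11.6% of all features. Timp2, an inhibitor of metalloproteases, fell by 2.15 ± 0.19 (adjusted p = 1.1e-05), while F3 and Htra1 rose. The median of -0.06 changes sign under the coding-sum rescaling. Collagens and basement membrane genes fell in 5 and rose in 1 of 21 cases, among them Nid1, a linker of the basement membrane, with a change of -1.56 ± 0.17 (adjusted p = 4.79e-05). Chondroitin proteoglycans and tenascins fell in 2 and rose in 0 of 11 cases, with falls also near the share of all features. Tnr, tenascin R, had a change of -3.24 ± 0.27.

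The change between the gates was then compared with that in the spinal cord of the same mice. The difference passed the test for 357 of 15930 features (2.24%), with 207 more positive (1.3%) and 150 more negative (0.942%) in the thalamus. Of 20 ependymal markers, 10 passed that test with a more negative change in the thalamus, and the median change of the list in the cord was -1.83. The summed FPKM of this list in negative libraries was 309 to 430 in the cord and 745 to 1025 in the thalamus. In positive libraries it was 33.7 to 44.4 in the cord and 58.4 to 85.3 in the thalamus, so it was not lower in the positive thalamus gate. Slc38a1 was at 20.6, 31.6, 35.3 and 33.8 FPKM in negative and 14.1, 13.8, 15.6 and 14.6 FPKM in positive cord libraries, so it stayed at a moderate level in the positive gate there. The difference of -4.32 ± 0.23 had an adjusted p of 2.29e-06. Emb, embigin, a chaperone of monocarboxylate transporters, was at 23.1 to 29.3 FPKM and 0.0304 to 0.174 FPKM in the negative and positive gates of the thalamus and at 0.181 to 2.63 FPKM and 0 to 0.155 FPKM in the cord. Its difference was -3.78 ± 0.41 (adjusted p = 0.000707). Tmem212, an ependymal membrane protein, was at 0.75 to 2.12 FPKM in negative cord libraries against 34.9 to 70.8 FPKM in those of the thalamus, with a difference of -3.99 ± 0.37 (adjusted p = 0.00018). In Emb and Tmem212, as in some ependymal markers such as Cdhr4, the negative cord libraries were already near 0, so no fall of the size seen in the thalamus could be measured there, and the difference describes their level in the negative gate of the thalamus. Slc38a1 was well above 0 in both cord gates.

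Genes of oligodendrocytes were among those that differed the other way. The median of the myelinating list was -4.04 in the cord against -2.16 in the thalamus. The summed FPKM of the list in negative libraries was 3821 to 4041 in the cord and 505 to 1108 in the thalamus. In positive libraries the sum was 209 to 242 in the cord and 111 to 164 in the thalamus, so it was not lower in the positive cord gate. Gjc3, a connexin of oligodendrocytes, was at 43.9, 28.9, 24.3 and 28.4 FPKM in negative and 13.5, 9.16, 8.23 and 7.68 FPKM in positive libraries in the thalamus and at 125, 149, 132 and 148 FPKM in negative and 3.53, 3.45, 3.29 and 3.94 FPKM in positive cord libraries. It fell in both regions, and the difference of 3.34 ± 0.26 had an adjusted p of 4.33e-05. Prokr2, a prokineticin receptor, was at 5.18 to 14.3 FPKM and 0.745 to 1.09 FPKM in the thalamus and at 51.2 to 109.8 FPKM and 0.437 to 0.68 FPKM in the cord, with a difference of 3.22 ± 0.38 (adjusted p = 0.00133). Its positive libraries were near 0 in both regions, so this difference, too, describes the level in the negative gates. Gdf10, a growth factor of the TGF-beta family, was at 10.4, 15.5, 15.6 and 20.6 FPKM in negative and 15.05, 23.8, 19.2 and 26.7 FPKM in positive libraries in the thalamus, with a change of 0.43 ± 0.34 (adjusted p = 0.373). In the cord it was at 14.6, 9.89, 44.3 and 15.9 FPKM in negative and 1.15, 1.26, 1.05 and 0.895 FPKM in positive libraries. The difference of 3.62 ± 0.48 had an adjusted p of 0.00256.

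The fibrous and protoplasmic lists had cord medians of -0.84 and 1.11 beside -1.02 and 0.53 in the thalamus. Single members of functional lists differed as well. The change of Gria2 was larger in the thalamus by 1.70 ± 0.30 (adjusted p = 0.0133), that of Gas6 differed by -2.04 ± 0.30 (adjusted p = 0.0048), and that of Fgf1 by -0.95 ± 0.20 (adjusted p = 0.0273). In the cord, Gria2 was at 9.86 to 19.4 FPKM in negative and 17.8 to 21.2 FPKM in positive libraries, with overlapping gates, and Gas6 at 7.76 to 14.2 and 12.1 to 13.9 FPKM. The count of 357 depended on single libraries: it was 194, 206, 173 and 171 without the positive thalamus library of mouse 1, 2, 3 or 4, and 582 without the negative one of mouse 1.

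**Figure D5:**
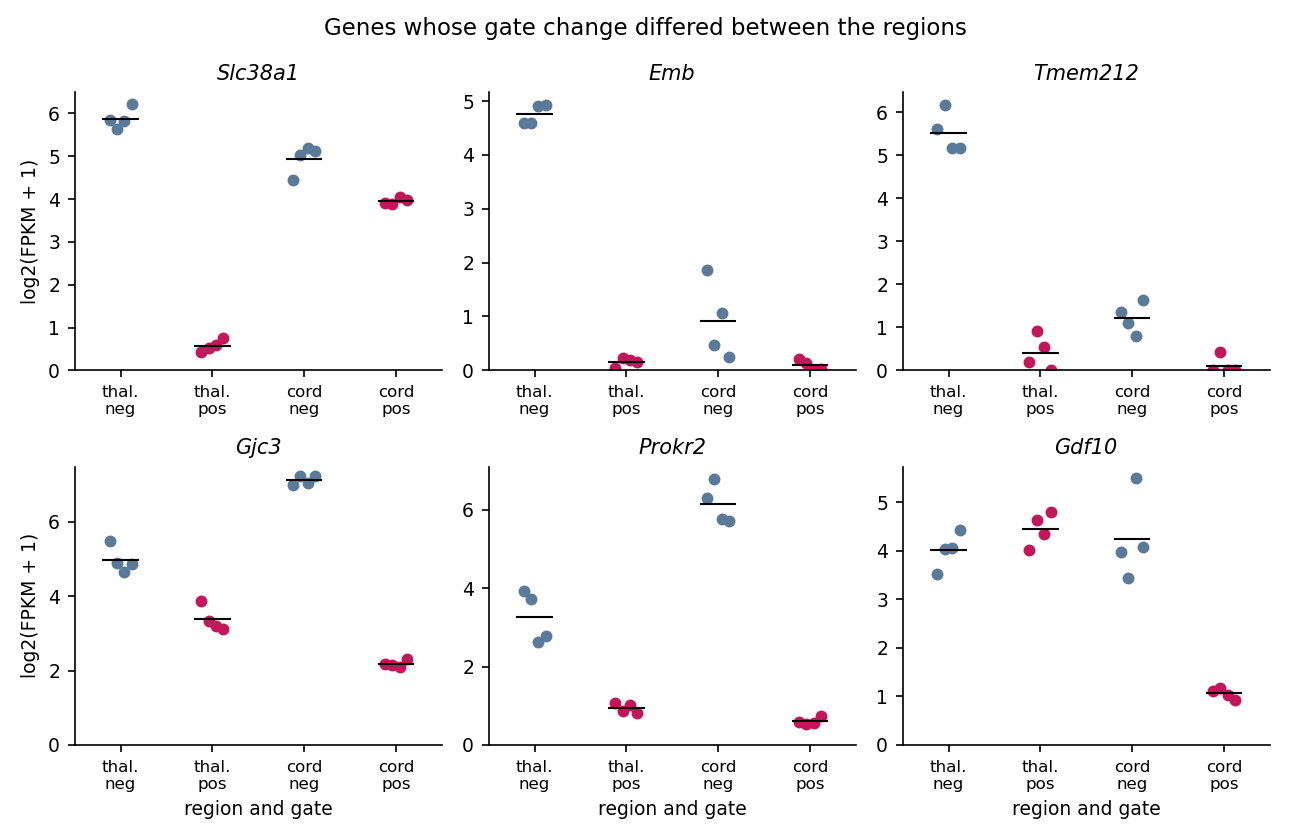
Log2(FPKM + 1) of 6 genes whose change between the gates differed between the regions, 1 point per library, with a bar at the group mean (blue negative, red positive). Slc38a1 falls further in the thalamus and Gjc3 in the spinal cord, Emb and Tmem212 are near 0 in both cord gates, Prokr2 is near 0 in both positive gates, and Gdf10 is lower in the positive cord libraries while its thalamus gates overlap.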

How the data were processed

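RNA of FACS-isolated astrocytes was extracted with a Qiagen RNeasy plus micro kit and made into libraries with NuGEN RNA-Seq V2, per the labels' protocols. The authors deposited FPKM values for 39171 features in 16 libraries. The genome build GRCm38 and, without roles or order, the tools Bowtie2 2.2.3, TopHat2 2.0.11, FastQC, Cufflinks, Cuffnorm, HTSeq 0.6.1p1 and DESeq2 are named per the submitters' processing notes. The strand setting of the counting and the annotation are not given there. The file named 22919 features, GENCODE vM21 named 15208 by identifier, and 1044 had no symbol. A further deposited comparison table with log2 fold changes and p-values of the authors was not used for any value. Depth is unknown for FPKM, and the number of mice (4) limits the precision.

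A feature had to reach 1 FPKM in 4 or more libraries (16340 did), and 410 that were at 0 beside 100 FPKM or more in a library of the same group, which can be a failed estimate, were left out (11 protein-coding). The 15930 others entered a linear model of log2(FPKM + 1) in limma (version 3.58.1, R version 4.3.3), with a coefficient per group, mouse as a fixed block, all 16 libraries and a trended prior (9 residual degrees of freedom), and p-values were Benjamini-Hochberg adjusted over all features. On simulated data, 29% of changes of 1 and 73% of changes of 2 on the log2 scale were recovered (100 each), with 3 false calls among 15930 features. The simulated noise was normal, with 1 spread per feature for all libraries and no mouse effect. Only features with a mean log2(FPKM + 1) above 2 were changed. The larger spread of the negative gate was not simulated, so the false calls give no error rate for these data. Libraries with the same number came from the same mouse, per the labels. The correlation of their deviations from group means averaged 0.0354 over 24 same-mouse pairs (-0.0281 to 0.119) and -0.0117 over 72 other pairs. Deviations cancel within a group, so the second average largely follows from the first and is no separate comparison. No 2 libraries were identical (0 pairs).

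The compared libraries, the gene lists and the tests were chosen with earlier results of these data known. Named genes were Il33 and Aldh1l1, the 15 with the largest change in each direction among called genes with at least 5 FPKM in the higher gate and the same direction in 4 of 4 mice, up to 5 called members per direction and the 4 most abundant members of each list, and 6 genes per direction of the regional difference. Lrrc23, Ccdc153, Dnah7b and the genes of single libraries were named after their values were seen. Some genes that the rule named are not reported here. Lists are described by counts and medians, with no set test. Promoters came from RefSeq (GRCm38.p6), matched by gene with the same chromosome and strand, and coordinates of genes from GENCODE vM21 (GRCm38). Besides the overlaps named in the text, Enkur, Nfix, Gria2, Gria4, Mertk, Emb, Id4, Erbb4, Tmem212, Itpr2 and some others overlap predicted or noncoding genes. Alternatives were the block, the libraries fitted, the pseudocount, the filter, the scaling, the prior and leaving out each thalamus library or mouse. Figures were drawn with matplotlib 3.10.9.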

Additional observations from a re-analysis of the deposited data

Results flagged for a closer look

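In 172 groups of 4 libraries (named genes and summed lists), 6 had a library far from the other 3 by Dixon's test at the 95% level. Chance alone sets apart about 1 in 20 groups. Zfp691 was at 10.3 FPKM in the negative thalamus library of mouse 3 against at most 1.80 in the other negative libraries, and Nbeal2 was at 9.10 FPKM in the same library. Ccna1, a cyclin, was at 0.159 FPKM in the positive library of mouse 3 and at 0 in the other positive libraries. The border macrophage and blood list summed to 8.71 FPKM in the negative library of mouse 4 against 1.06 to 1.72 in the others. Cycling and progenitor genes summed to 363 FPKM in the negative library of mouse 2, and the FGF list to 545 FPKM in that of mouse 1 against 611 to 619 in the others.

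For 12 genes with the largest differences, the change between the gates differed between the thalamus and the spinal cord by the test of the difference itself (limma, adjusted p below 0.05). The thalamus change was more positive by 3.62 for Gdf10, 3.37 for Dusp15, 3.34 for Gjc3, 3.22 for Prokr2, 2.78 for Aatk and 2.78 for Cldn11 on the log2 scale. It was more negative for Slc38a1 (-4.32), Tmem212 (-3.99), Emb (-3.78), Cdhr4 (-3.67), Ccna1 (-3.49) and Spata18 (-3.49). Apart from Slc38a1, these genes were at 3.58 FPKM or less in every cord library, so that a fall as large as in the thalamus could not be measured there. Among the genes with a more positive change, Dusp15 and Cldn11 were at 2.51 FPKM or less in every positive library of both regions. In negative cord libraries they were at 28.05 to 32.4 and 111 to 178 FPKM. Aatk was at 8.05 to 10.4 and 7.82 to 11.2 FPKM in positive thalamus and cord libraries. In negative cord libraries it was at 22.2 to 65.3 FPKM. These differences, too, describe the level in the negative gates.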

How the results depend on the processing

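Of 24 alternatives, 23 were planned and 1, testing only nuclear protein-coding genes, was added after seeing the data. The 4140 calls became 2068 (774 higher, 1294 lower) with only the thalamus libraries fitted, and ranged from 2164 to 4709 when a library or mouse was left out (798 to 2155 higher, 1366 to 2554 lower). The 1855 higher calls became 3617 under rescaling to the nuclear coding sum and 1028 with only nuclear coding genes tested, and 1079 and 1156 without the positive library of mouse 3 or 4. The share of higher calls was 44.8% and 69.8% under the coding-sum rescaling, against 36.7% to 47.2% in the other fits with all classes and 31.5% with coding genes only. The 357 regional differences became 224 with a pseudocount of 0.1, 227 with a filter of 5 FPKM, and 55 to 582 when a library or mouse was left out (67, 55 and 69 without mouse 2, 3 or 4). The 11 fibrous falls ranged from 7 to 11 and the 11 protoplasmic rises from 7 to 10 with a library or mouse left out, and the rises were 7 with only the thalamus libraries. Il33, not called as reported, was 0.89 under the coding-sum rescaling and 0.43 to 0.76 when a library or mouse was left out. Without the replicate block, 4118 features were called (1864 higher, 2254 lower) and 426 differed between regions. The counts of falling ependymal, myelinating, newly formed and pan-neuronal markers stayed within 1.5 times in every alternative. The genes checked singly were every called member of every list and the called genes chosen by size or regional difference, more than the text names. Of these 336 called genes, 203 were called in every alternative, 133 lost the call in at least 1, and 0 reversed. Of 49 list counts, 9 stayed within 1.5 times throughout. The cause of these changes was not tested. Depth is unknown, so no value is limited by a counting interval.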

Other observations

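Single negative libraries held some genes far above the others of the gate. With at least 10 FPKM and at least 4-fold above each of the other 3 libraries of its gate, 141, 111, 80 and 87 features stood out in the negative libraries of mice 1, 2, 3 and 4, of which 59, 37, 14 and 32 were protein-coding. In the positive libraries the numbers were 22, 13, 29 and 28, with 2, 1, 1 and 1 protein-coding. In the negative library of mouse 2 they held the forebrain factor Lhx2, the Wnt antagonist Sfrp1, and Mki67, Ccna2, Bub1b and Nusap1, genes of dividing cells. In that of mouse 1 they held Abcb1a, a transporter of the blood-brain barrier, and Cav1, caveolin.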
